A study of Mus musculus with 6 samples.

Results

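Interferon-stimulated genes are described here in haematopoietic stem cells (HSCs) sorted from the bone marrow of mice with and without *Med23*, a subunit of the mediator complex that links transcription factors to RNA polymerase II. The members are 47 genes chosen by symbol, and all 47 were found among the 34745 genes of the deposited tables. Of these, 46 had enough reads to be tested among 12513 genes. *Mx2*, annotated as a polymorphic pseudogene in GENCODE M21, was too low to be tested.

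Bulk RNA-seq libraries were made from 3 WT and 3 *Med23*-deficient (KO) samples of C57BL/6 adult bone marrow, about which the labels give no further age. The label of the WT samples gives floxed *Med23* alleles (Med23floxp/flowp) and lists no Cre transgene, and KO samples carried Mx1-cre;Med23floxp/flowp. HSCs were gated as LSK cells (lineage-negative, Sca1-positive, cKit-positive) with the surface phenotype CD150+CD34-CD48-. In this model Cre is driven by the promoter of *Mx1*, itself an interferon-stimulated gene, and deletion is brought about by repeated intraperitoneal injection of poly(I:C), a synthetic double-stranded RNA. Neither the injections given to the WT mice of these libraries nor the interval between the last injection and the sort is given in the sources used here. Cre acts in every cell that responds to interferon, so that the deletion is not limited to HSCs.

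Type I interferons bind a receptor made of IFNAR1 and IFNAR2, whose kinases phosphorylate STAT2. STAT2 acts with IRF9 at the interferon-stimulated response element (ISRE) in the promoters of target genes, and the products of those genes sense viral RNA, block viral replication and feed back on the receptor. Interferon is known to drive quiescent HSCs into division, and stem cells are known to keep part of the programme on without infection. The comparison therefore asks whether mice that differ in Cre and in *Med23*, after a deletion that uses an interferon inducer, differed in the level of this programme in their HSCs.

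The libraries held between 3537269 and 8131344 counted reads, so that 3 counts correspond to between 0.369 and 0.848 CPM, the read count after TMM scaling of library sizes. Values given for each library follow the order of replicates 1 to 3. Nothing in the labels states that the samples came from separate mice, and p-values then measure only the spread between these libraries. *Med23* stood at 47.6, 70.8 and 24.1 CPM in WT and 31.6, 29.9 and 36.8 CPM in KO, a difference of -0.54 on the log2 scale (SE 0.41, edgeR adjusted p = 0.989). The library labelled WT replicate 3, with 78 counts of *Med23*, was below every KO library at this gene and goes against its label there. It stood with the other WT libraries in the skeletal muscle genes given below. That list was chosen with earlier results of these data known, so it cannot serve as a check of the label. For part of the genes, values are also given without it. Replicate 3 of both groups also stood apart in Y-linked genes, at 1 count or fewer over 4 genes against at least 1036 counts in each of the other 4 libraries. *Xist* went the other way, at 4819 counts in WT replicate 3 and 7853 in KO replicate 3 against 8 to 111 in the other 4. Of 10 HSC markers 10 were detected, with a summed level of 2347 to 2646 CPM in WT and 2095 to 2420.5 CPM in KO. Of these, *Kit*, *Ly6a* and *Hlf* had all KO libraries below all WT libraries (3 of 10, against 6.15% of all genes tested). *Mecom* had them above (1 of 10, against 6.25% of all genes tested). Of the markers of plasmacytoid dendritic cells, the main producers of interferon, *Siglech*, *Ccr9*, *Klk1* and *Ly6d* (4 of 8) were at 0 counts in all 6 libraries and *Cox6a2* at 2 counts or fewer. *Bcl11a* and *Tcf4* were at 108 to 199 and 112 to 174 CPM, and *Pacsin1* had 36 counts in WT replicate 1, 28 in KO replicate 1 and 2 or fewer elsewhere. The list summed to 256 to 342 CPM in WT and 257 to 334 CPM in KO. Of 10 skeletal muscle genes, 8 had all KO libraries below all WT libraries (against 6.15% of all genes tested). The 10 genes summed to 131 to 324 CPM in WT, highest in the library labelled WT replicate 3, and to 7.09 to 13.3 CPM in KO. Of 8 megakaryocyte and platelet genes, 4 were higher in every KO library (against 6.25% of all genes tested), with sums of 622 to 806 CPM in WT and 898 to 1063 CPM in KO. The part of these cells in the values below was not tested.

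The promoters of the members were read first, since the ISRE is the element at which STAT2 and IRF9 act. The members were chosen by symbol and not by this element. RefSeq promoter windows of the GRCm38.p6 build, from 250 bases before to 50 bases after the start site, were matched by symbol for 38 of the 47 members. The motif GAAANNGAAA, or its reverse complement TTTCNNTTTC, was found in the windows of 18 of these 38 genes (47.4%) and of 3.99% of all 27025 genes with a window. All 5 IRG and GBP GTPases held it, as did 4 of 7 RNA sensors and synthetases, 4 of 12 antiviral effectors, 2 of 3 IFITM genes, 2 of 7 receptor and transcription factor genes and 1 of 4 ISGylation and ADP-ribose genes. The stretches below show how the match differs among members that recur in the results: several overlapping copies in *Isg15* and *Bst2*, separated copies in *Ifit1* and *Ifit3*, and a single copy in the others. Each is written 5′ to 3′ on the strand of its gene, with every base that lies in a match in capitals.
Isg15: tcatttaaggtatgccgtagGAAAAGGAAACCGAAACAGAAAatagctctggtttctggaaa
Bst2: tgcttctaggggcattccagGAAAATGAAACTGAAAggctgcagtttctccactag
Ifit1: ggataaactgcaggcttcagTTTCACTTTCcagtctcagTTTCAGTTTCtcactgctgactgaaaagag
Ifit3: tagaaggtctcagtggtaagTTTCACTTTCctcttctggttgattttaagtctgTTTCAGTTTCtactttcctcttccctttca
Rsad2: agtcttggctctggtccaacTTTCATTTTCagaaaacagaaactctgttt
Oas3: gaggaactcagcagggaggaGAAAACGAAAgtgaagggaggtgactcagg
Irf2: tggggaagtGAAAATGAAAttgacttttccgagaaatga
Igtp: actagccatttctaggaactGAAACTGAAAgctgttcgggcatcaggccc
The *Isg15* stretch lies at chr4:156200855-156200916 on the minus strand and holds 3 matches that overlap. That of *Bst2* lies at chr8:71537567-71537622 on the minus strand and holds 2 overlapping matches. *Ifit1* at chr19:34640765-34640833 on the plus strand and *Ifit3* at chr19:34583353-34583436 on the plus strand hold 2 matches each, both in the reverse complement. The stretches with a single match lie at chr12:26456543-26456592 on the minus strand for *Rsad2*, chr5:120777705-120777754 on the minus strand for *Oas3*, chr8:46739495-46739533 on the plus strand for *Irf2* and chr11:58199502-58199551 on the plus strand for *Igtp*. Members with a match had a median log2 fold change between KO and WT of -0.07 over 18 genes, and tested members whose window held none had -0.09 over 20 genes. A match describes the letters of the window and is not a measured binding site.

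Levels per length differed widely among the members. On the FPKM scale, averaged over the 6 libraries, the 3 IFITM genes stood at 460.3, 582 and 741 FPKM for *Ifitm1*, *Ifitm3* and *Ifitm2*, and *Bst2* followed at 141 FPKM. *Irf2*, *Igtp*, *Rtp4* and *Gbp2* lay between 51.4 and 82.8 FPKM. At the low end were *Rsad2* at 4.08 FPKM, *Oasl1* at 3.21 FPKM, *Mx1* at 0.502 FPKM and *Mx2* at 0.399 FPKM. Other genes that are used as reporters of an acute response to interferon were also low, with *Usp18* at 6.49 FPKM and *Ifit3* at 5.28 FPKM, whereas *Isg15* was at 26.4 FPKM. *Mx2* was counted 27, 0 and 1 times in WT and 8, 0 and 23 times in KO, so that within each group some libraries were at or near 0. C57BL/6 mice are known to carry defective *Mx1* and *Mx2* alleles, and reads on these genes are no measure of a functional protein.

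No member passed an adjusted p of 0.05 in edgeR's quasi-likelihood test (0 of 46, lowest adjusted p 0.757), against a background of 0.0719% of all genes tested, which is 9 of 12513. At an unadjusted p under 0.05 there was 1 member, *Oasl1*, against 5.71% of all genes. DESeq2, limma voom and limma on filtered FPKM values likewise called 0 members, with 2, 1 and 1 members at an unadjusted p under 0.05. The estimate was higher in KO for 21 members and lower for 25, that is 45.7% higher against 49.5% of all genes tested. The median log2 fold change of the members was -0.06 and that of all genes tested was -0.01, and single members lay between -1.42 and 1.17. The precision allowed limits to be set for many of them. The 95% interval lay within a 2-fold change in either direction for 25 of the 46 members, it excluded a 2-fold rise for 35 and a 2-fold fall for 32, and its median half-width was 0.65 on the log2 scale.

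**Figure D1:**
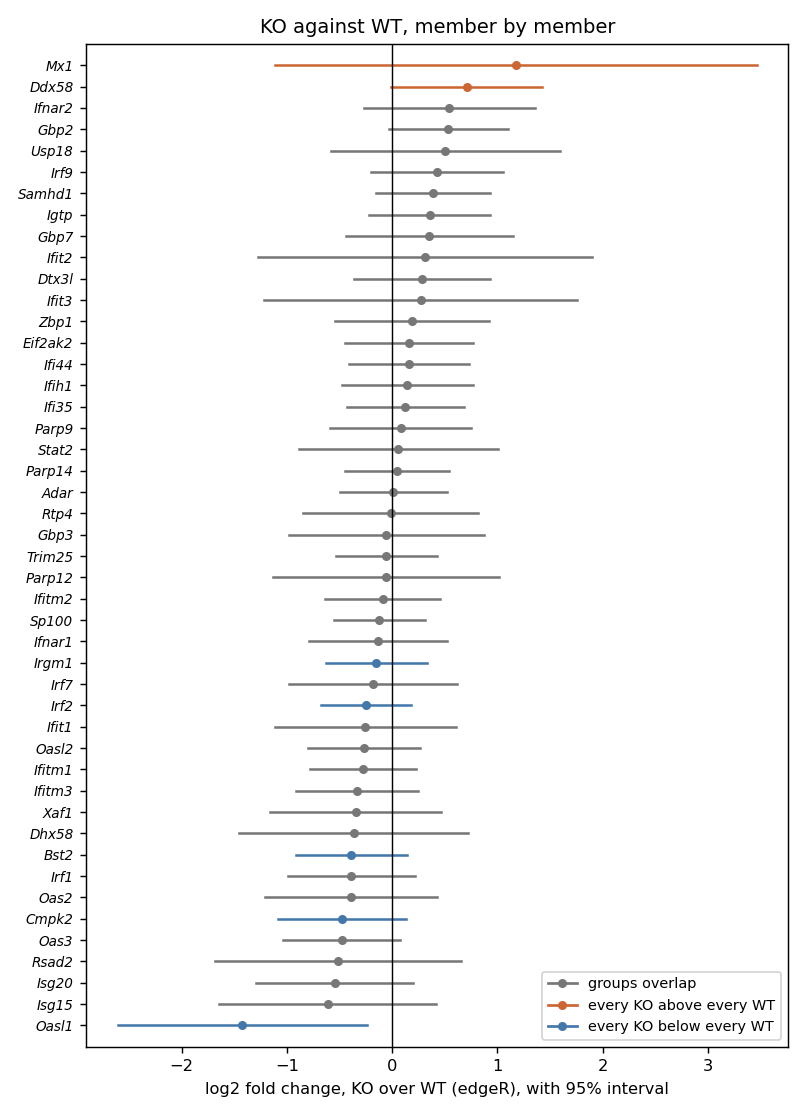
Log2 fold change of KO over WT from edgeR for each of the 46 tested members (horizontal axis, log2), with bars for the 95% interval and 3 libraries per group. The estimates spread to both sides of 0 from -1.42 for *Oasl1* to 1.17 for *Mx1*. Colours mark the 7 members whose groups did not overlap.

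In 7 of the 46 members (15.2%) every KO library lay on the same side of every WT library, against a background of 12.4% of all genes tested. Of these, 2 were higher in KO (*Ddx58* and *Mx1*, background 6.25%) and 5 were lower (*Irf2*, *Oasl1*, *Bst2*, *Cmpk2* and *Irgm1*, background 6.15%). Without the library labelled WT replicate 3, the log2 fold change was 0.44 for *Ddx58* and 1.57 for *Mx1*. In the same order as above, it was -0.23, -1.61, -0.32, -0.24 and -0.17 for those lower in KO. For these 7 members the exact two-sided permutation test could only give p = 0.1, since they were picked for groups without overlap. That is the smallest value that 3 libraries against 3 allow, and it adds nothing to the separation itself.

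Among the receptor chains and transcription factors, 0 of 7 passed the test, with 3 estimates higher in KO and 4 lower. *Ifnar1*, the receptor chain that docks TYK2, was at 174, 129 and 112 CPM in WT and 177, 111 and 91.7 CPM in KO, and the groups overlapped. *Ifnar2*, the high-affinity receptor chain at chr16:91372783-91405589, was at 138, 103 and 47 CPM in WT and 152, 103 and 166 CPM in KO. The library labelled WT replicate 3 was the lowest and the other 5 lay between 103 and 166 CPM, which gave a log2 fold change of 0.54 (SE 0.37, edgeR adjusted p = 0.989) with all libraries, 0.22 without that library and 0.90 without WT replicate 1. *Stat2* and *Irf9* encode factors that act together at the ISRE. *Stat2* was at 113, 32.1 and 47.3 CPM in WT and 63, 67 and 70 CPM in KO, and *Irf9* at 223, 102 and 152 CPM in WT and 191, 214 and 235 CPM in KO. In both genes WT replicate 2 was the lowest library, and WT replicate 1 lay at or near the top. Exons of *Irf9* overlap *Rnf31* on the same strand, and those of *Ifnar2* overlap Gm21970. How reads in these overlaps were counted is not stated, so the levels of both genes are uncertain to that extent.

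*Irf1*, an activator that responds to interferon gamma as well, was at 282, 229.9 and 143 CPM in WT and 135, 182 and 184 CPM in KO, and the groups overlapped. *Irf2*, which binds the same element and is known as an antagonist of *Irf1* and a factor that restrains interferon signalling in HSCs, was at 218, 226 and 230.2 CPM in WT and 185, 171 and 211 CPM in KO. The KO libraries lay below all WT libraries, by a log2 fold change of -0.25 (SE 0.19, edgeR adjusted p = 0.989), a difference that the test did not tell from the spread between libraries. *Irf7*, the amplifier of interferon production and itself strongly induced by interferon, was at 123, 66.5 and 137 CPM in WT and 75.2, 70.2 and 141 CPM in KO. KO replicate 3 and the library labelled WT replicate 3 were the highest, and the order of the libraries did not follow the groups.

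Among the RNA sensors and synthetases, 0 of 10 passed, with 5 estimates higher and 5 lower. *Ddx58*, which encodes the sensor RIG-I and lies at chr4:40203773-40239828, was at 102, 99.4 and 47.9 CPM in WT and 173, 122 and 113 CPM in KO. All KO libraries were above all WT libraries, with a log2 fold change of 0.71 (SE 0.32, edgeR adjusted p = 0.90) and a 95% interval of -0.01 to 1.43. The library labelled WT replicate 3 was the lowest, and without it the log2 fold change was 0.44. *Ifih1*, the gene of the related sensor MDA5, which recognises long double-stranded RNA such as poly(I:C), was at 109, 145 and 81.3 CPM in WT and 134, 142 and 94.1 CPM in KO with overlapping groups. *Adar*, which edits double-stranded RNA and keeps it from being sensed, was among the steadier members at 237, 235 and 159 CPM in WT and 222, 179 and 236 CPM in KO. The means were 211 ± 44.4 CPM in WT and 212 ± 29.5 CPM in KO (SD, n = 3 each).

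The lowest fold change of all members was that of *Oasl1*, which is known to repress translation of *Irf7* and lies at chr5:114923240-114937915. Its values were 31.6, 28.6 and 18.9 CPM in WT and 5.67, 7.83 and 16 CPM in KO. Every KO library was below every WT library, although KO replicate 3 came close to the library labelled WT replicate 3, and the test gave a log2 fold change of -1.42 (SE 0.53, edgeR adjusted p = 0.76) with an unadjusted p of 0.023. Its exons overlap Gm13822 on the other strand. *Oas2*, which makes the 2′-5′ oligoadenylates that activate RNase L, was at 57.2, 32.4 and 46.4 CPM in WT and 24.9, 41.5 and 37.2 CPM in KO with overlapping groups. The other members of this class (*Dhx58*, *Zbp1*, *Eif2ak2*, *Oas3* and *Oasl2*) had log2 fold changes between -0.48 and 0.19, with overlapping groups. Summed over the class, levels were 1191, 1001 and 819 CPM in WT and 1028, 897 and 1003 CPM in KO.

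Among the regulators of ISGylation, ubiquitin and ADP-ribose, 0 of 7 passed, with 4 estimates higher and 3 lower. *Isg15*, the ubiquitin-like modifier itself, was at 22.6, 20.8 and 30.3 CPM in WT and 14, 10.7 and 23.3 CPM in KO. The top KO library lay above the 2 lower WT libraries, so the groups overlapped, and the comparison gave a log2 fold change of -0.61 (SE 0.46, edgeR adjusted p = 0.989), with -0.98 without KO replicate 3, -0.39 without KO replicate 2 and -0.44 without the library labelled WT replicate 3. *Usp18*, which removes ISG15 from proteins and blocks signalling at IFNAR2, was at 19.1, 26.8 and 9.27 CPM in WT and 19.9, 24.9 and 34 CPM in KO. The library labelled WT replicate 3 was again the lowest and KO replicate 3 the highest. *Parp12*, an ADP-ribosyltransferase and among the 3 members with the widest range, was at 77.7, 89.8 and 19.2 CPM in WT and 45.6, 63.7 and 71 CPM in KO. A single library set that range, and the log2 fold change of -0.06 (SE 0.48, edgeR adjusted p = 0.997) became -0.48 without it. *Trim25* and *Parp14* had the narrowest ranges of the class, at 0.43 and 0.41 on the log2 scale between the highest and the lowest library.

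Among the antiviral effectors, 0 of the 14 tested passed, with 6 estimates higher and 8 lower. The IFIT genes, whose proteins bind foreign RNA caps, did not share an order of libraries. *Ifit1* was at 39.4, 77.1 and 68.6 CPM in WT and 36.5, 41.5 and 77.1 CPM in KO. *Ifit2* was at 49.2, 23.5 and 5.56 CPM in WT and 48, 37.9 and 11.5 CPM in KO, the widest range of any tested member, 3.04 on the log2 scale. *Ifit3* was at 11.1, 7.87 and 5.87 CPM in WT and 9.93, 14.4 and 5.67 CPM in KO. *Ifit1* was lowest in replicate 1 of both groups, whereas *Ifit2* was lowest in replicate 3 of both groups and highest in replicate 1 of both. The comparison of *Ifit2* gave a log2 fold change of 0.31 (SE 0.71, edgeR adjusted p = 0.997) and changed sign, to -0.16, without the library labelled WT replicate 3. IFIT reads may be shared between paralogs.

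*Mx1*, the GTPase whose promoter drives Cre in the KO mice, was counted 4, 13 and 8 times in WT and 20, 16 and 20 times in KO. These counts correspond to 0.82, 1.6 and 2.47 CPM in WT and 4.05, 2.91 and 4.05 CPM in KO, and all KO libraries were above all WT libraries. The comparison gave a log2 fold change of 1.17 (SE 1.03, edgeR adjusted p = 0.989), with a 95% interval of -1.11 to 3.46 that spans falls and rises of over 2-fold. The transgene carries the promoter and not the coding sequence, and counts on *Mx1* were not separated by origin. *Rsad2*, the gene of viperin, was at 12.7, 35 and 22.6 CPM in WT and 9.52, 17.8 and 22.1 CPM in KO, with WT replicate 2 the highest and KO replicate 1 the lowest.

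*Bst2*, the gene of tetherin, which holds budding virions at the membrane and is also a surface marker of interferon exposure, was at 128, 108 and 135 CPM in WT and 78.2, 106 and 98.5 CPM in KO. The highest KO library lay just below the lowest WT library, and the comparison gave a log2 fold change of -0.39 (SE 0.24, edgeR adjusted p = 0.98). *Cmpk2*, a mitochondrial nucleotide kinase gene adjacent to *Rsad2*, was at 87.5, 82 and 131 CPM in WT and 69.3, 67 and 79.5 CPM in KO. KO libraries lay below WT, with the library labelled WT replicate 3 far above the rest, and the log2 fold change of -0.48 (SE 0.27, edgeR adjusted p = 0.955) was -0.24 without it. *Isg20*, an exonuclease gene, was at 85.1, 46.9 and 100.1 CPM in WT and 44, 53.3 and 61.1 CPM in KO, with a log2 fold change of -0.55 (SE 0.34, edgeR adjusted p = 0.98) and overlapping groups. It was -0.32 without the library labelled WT replicate 3. The 2 highest values were both in WT, among them that of the library labelled WT replicate 3.

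*Samhd1*, the dNTP hydrolase that restricts retroviruses, was at 352, 316 and 403 CPM in WT and 356, 409 and 638 CPM in KO. KO replicate 3 stood above all others, and the groups overlapped. *Sp100*, a nuclear body protein, was the second steadiest member at 196, 197 and 207 CPM in WT and 206, 166 and 178 CPM in KO, a range of 0.32 on the log2 scale. The other effectors (*Ifi35*, *Ifi44*, *Rtp4* and *Xaf1*) had log2 fold changes between -0.35 and 0.16 and overlapping groups. Summed over the class, levels were 1328, 1233 and 1341 CPM in WT and 1179, 1225 and 1548 CPM in KO.

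**Figure D2:**
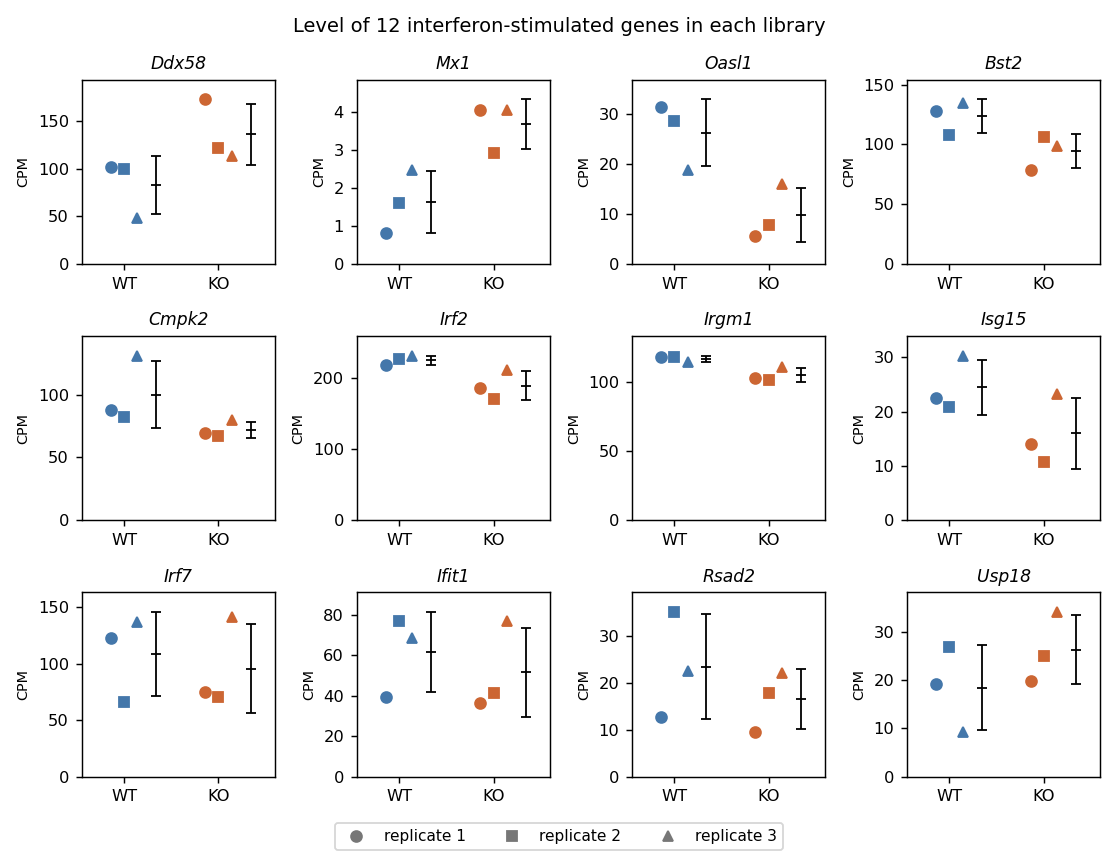
Level in CPM (vertical axes, linear and starting at 0) of 12 members in each library, with symbols for the replicate numbers and black bars for the group mean and SD of 3 libraries. The first 7 panels are the members whose groups did not overlap, and the other 5 (*Isg15*, *Irf7*, *Ifit1*, *Rsad2* and *Usp18*) are induced members with overlapping groups.

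The 3 IFITM genes, which keep enveloped viruses from fusing with endosomes and are the most abundant members per length, had lower estimates in KO in 3 of 3 and passed the test in 0; the estimate of *Ifitm2* was above 0 with the gene length correction described below (0.12) and without the library labelled WT replicate 3 (0.16). *Ifitm1* was at 725, 643 and 611 CPM in WT and 408, 709 and 516 CPM in KO. *Ifitm2* was at 397, 421 and 636 CPM in WT and 348, 486 and 532 CPM in KO. *Ifitm3* was at 453, 387 and 493 CPM in WT and 224, 382 and 451 CPM in KO. KO replicate 1 was the lowest library for all 3 genes, and the groups overlapped in each. The class summed to 1575, 1450.2 and 1739 CPM in WT (mean 1588 ± 145, SD, n = 3) and to 980, 1577 and 1499.7 CPM in KO (mean 1352 ± 325, SD, n = 3). The *Ifitm* genes are near-identical in parts, and the way shared reads were counted is not stated, so the split among them is uncertain.

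Among the IRG and GBP GTPases, which attack the vacuoles of intracellular parasites and respond to interferon gamma, 0 of 5 passed, with 3 estimates higher and 2 lower. *Igtp* was at 296, 289 and 291 CPM in WT and 259, 334 and 529 CPM in KO. KO replicate 3 was the highest and the other 5 libraries lay between 259 and 334 CPM. *Irgm1*, a GTPase known to protect HSCs from the effects of interferon, was the steadiest member of all, with 118, 118 and 114 CPM in WT and 103, 101 and 111 CPM in KO. All KO libraries lay below all WT libraries, yet the whole range was 0.22 on the log2 scale and the comparison gave a log2 fold change of -0.15 (SE 0.22, edgeR adjusted p = 0.997). *Gbp7* was at 134, 123 and 47.6 CPM in WT and 135, 109.6 and 146 CPM in KO, with the library labelled WT replicate 3 far below the rest. The groups also overlapped in *Gbp2* and *Gbp3*, with log2 fold changes between -0.06 and 0.53, and reads may be shared among these paralogs, as between *Igtp* and *Irgm2*, whose exons overlap.

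Summed over all 47 members, the programme made up between 0.533 and 0.701% of the counts of a library. The summed level was 6829.9, 5962 and 5828 CPM in WT replicates 1 to 3 (mean 6207 ± 544, SD, n = 3) and 5519, 5948 and 6911 CPM in KO replicates 1 to 3 (mean 6126 ± 712, SD, n = 3). The top library was in KO and the next in WT, and the means differed by less than the spread within either group. In bulk samples, fewer cells that express a gene and less RNA per cell cannot be told apart.

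The rest of the pathway was read from a list of 96 other genes, of which 78 were tested. Of the 7 interferon genes in the list, the ligands of the pathway, *Ifna2*, *Ifna4*, *Ifna5*, *Ifng* and *Ifne* were at 0 counts in all 6 libraries, *Ifnb1* had 4 counts in KO replicate 1 and *Ifnk* 6 in WT replicate 2, with 0 elsewhere. No ligand could be compared at this depth. In edgeR 0 of 78 passed and 6 had an unadjusted p under 0.05 (background 5.71%), the estimate was higher in KO for 42 and lower for 36, and the median log2 fold change was 0.04. The groups did not overlap in 9 of the 78 (11.5%, background 12.4%), with 6 higher (background 6.25%) and 3 lower (background 6.15%) in KO, so the share was not above that of all genes. By role, estimates were higher in KO for 6 of 9 genes of upstream sensing, 5 of 8 receptors, kinases and STATs, 5 of 6 negative regulators and 26 of 55 other induced genes. *Samd9l*, a growth-suppressive gene of haematopoietic cells, was at 96.4, 108 and 49.8 CPM in WT and 224, 232 and 134 CPM in KO, with all KO libraries above all WT libraries and a log2 fold change of 1.21 (SE 0.33, edgeR adjusted p = 0.42). For this gene DESeq2 gave an adjusted p of 0.0534, close to the threshold, and the edgeR log2 fold change was 0.95 without the library labelled WT replicate 3. *Irf5*, a transcription factor downstream of Toll-like receptors, was at 20.5, 20.2 and 24.1 CPM in WT and 71.3, 34.2 and 43.3 CPM in KO, again without overlap, with a log2 fold change of 1.20 (SE 0.39, edgeR adjusted p = 0.61). *Znfx1*, an RNA helicase of early antiviral sensing, was at 59.9, 44.5 and 38 CPM in WT and 84.5, 85 and 78.9 CPM in KO, with a log2 fold change of 0.80 (SE 0.28, edgeR adjusted p = 0.70). The KO libraries lay above the WT libraries also in *Ifi47*, *Ifi203* and *Sp140*, with log2 fold changes of 0.57, 0.51 and 0.36 (SE 0.19, 0.23 and 0.32). *Ifi47*, an IRG GTPase, was at 186, 223 and 193 CPM in WT and 283, 302 and 309 CPM in KO. In *Slfn5* and *Tor3a* the KO libraries lay below, with log2 fold changes of -0.70 and -0.29 (SE 0.33 and 0.26), and *Tor3a* was at -0.15 without KO replicate 3. *Slfn5* was at 57.2, 39.4 and 62.4 CPM in WT and 35.7, 32 and 30.2 CPM in KO, and every KO value was below every WT value.

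The members also varied between libraries of the same group. Each member was centred on its mean over the 6 libraries on the log2(CPM + 0.5) scale. The median of the centred members was 0.28 in WT replicate 1, 0.01 in WT replicate 2 and -0.17 in the library labelled WT replicate 3. In KO replicates 1 to 3 it was -0.11, -0.04 and 0.15. The libraries with the highest and the lowest median were thus both labelled WT. The median of all genes tested lay between 0.01 and 0.05 in every library. TMM scaling keeps that median nearly level between libraries by construction, so it is no measure of the scatter of a smaller set.

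**Figure D3:**
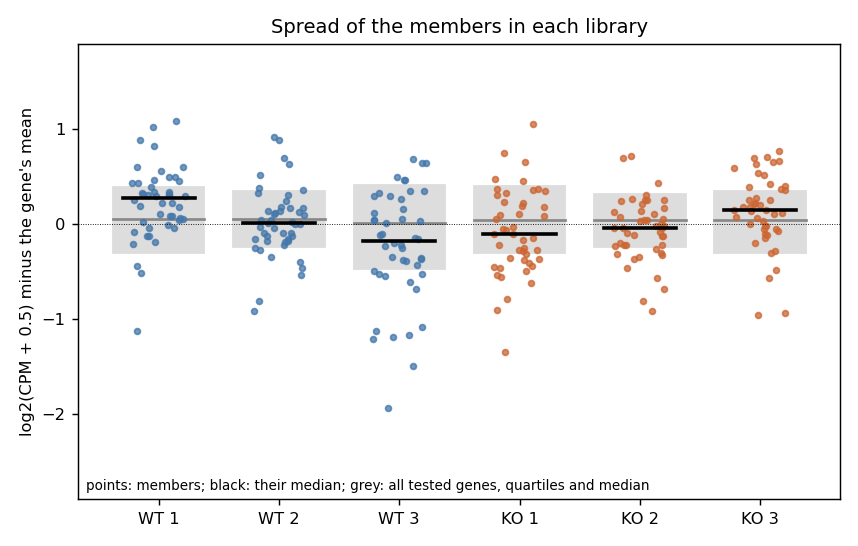
Each tested member in each library (points, vertical axis, log2(CPM + 0.5) minus the mean of that gene over 6 libraries), with the members' median in black and the quartiles and median of all tested genes in grey. The members' median is 0.28 in WT replicate 1 and -0.17 in WT replicate 3, and the lowest points lie in WT replicate 3.

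The library at the extreme differed from member to member. The highest value fell in KO replicate 3 for 13 members, in WT replicate 1 for 11 and in the library labelled WT replicate 3 for 9, and in the other 3 libraries for 2 to 6. In that order, the first 3 shares were 28.3, 23.9 and 19.6% of the members, against 16.3, 18.2 and 21.9% of all genes tested. The lowest value fell in the library labelled WT replicate 3 for 15 members and in KO replicate 1 for 13. Over all genes tested those 2 libraries held the lowest value for 24.6 and 16.8% of genes, against 32.6 and 28.3% of the members. WT replicate 1 held the lowest value for 1 member, *Mx1*, which is 2.17% of members against 17.5% of all genes tested.

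The library labelled WT replicate 3 divided the members. Against the mean of the other 5 libraries, 14 members were lower there by over 0.5 on the log2 scale (30.4%, against 27.1% of all genes tested) and 6 were higher by over 0.5 (13.0%, against 24.5%). Those farthest below were *Ifit2* at -2.33, *Parp12* at -1.80, *Ifnar2* at -1.45, *Gbp7* at -1.43, *Dhx58* at -1.40, *Usp18* at -1.35 and *Ddx58* at -1.31. The 6 above were *Isg20* at 0.82, *Isg15* and *Cmpk2* at 0.77, *Irf7* at 0.59, *Oas3* at 0.56 and *Ifitm2* at 0.56. Sensors, effectors and regulators stood on both sides. A principal component analysis of the members placed this library apart on the first axis, which held 43.9% of the variance, at 4.13 against -2.20 to 0.49 for the other 5 libraries.

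**Figure D4:**
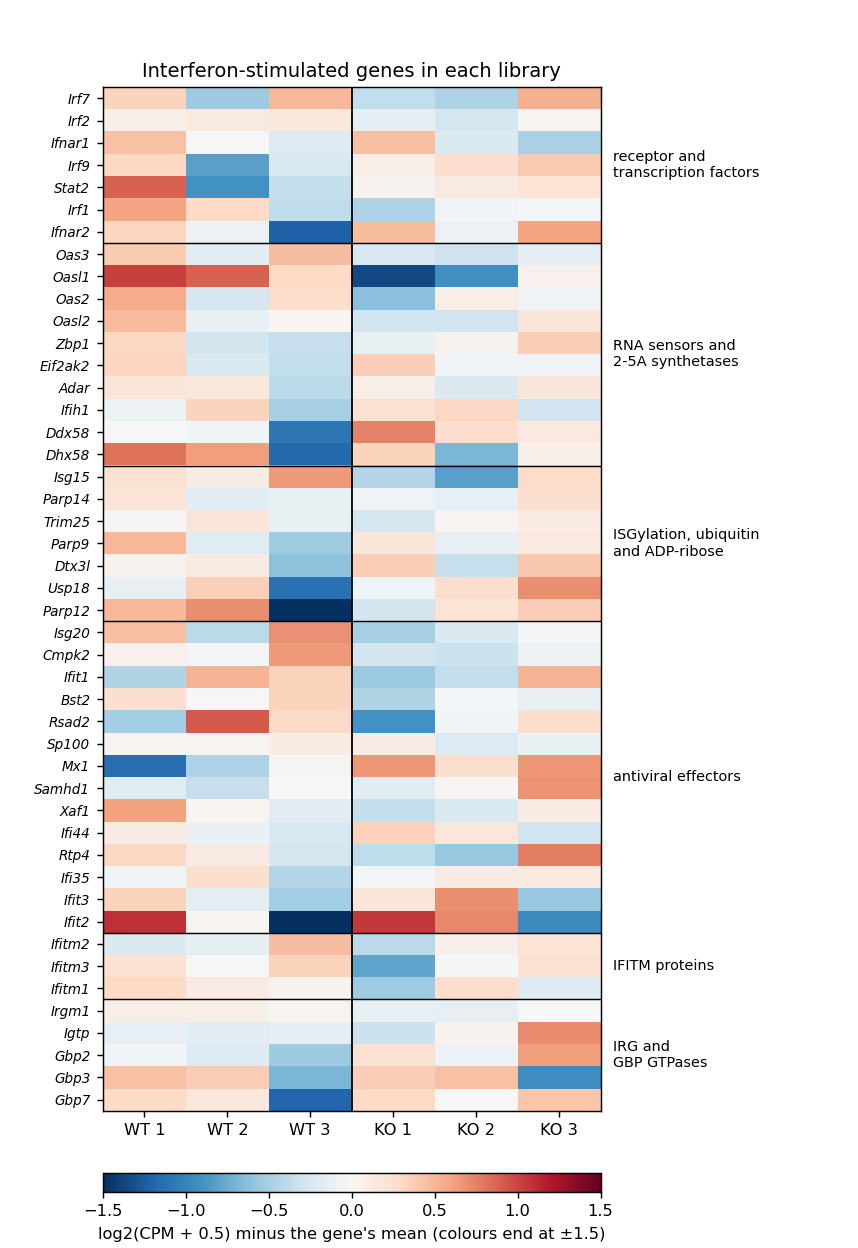
The 46 tested members (rows, by class and, within a class, by their value in WT replicate 3) in the 6 libraries (columns), coloured by log2(CPM + 0.5) minus the mean of the gene, with colours ending at 1.5 in either direction. The darkest blue cells, *Ifit2* and *Parp12*, lie in the column of WT replicate 3, where *Isg20* and *Cmpk2* are red.

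Over the 6 libraries the 1035 pairs of tested members had a median Pearson correlation of 0.131, with 25.9% of pairs over 0.5 and 12.5% under -0.5. For all pairs of genes tested the median was -0.005, with 17.5% and 17.1%. With the group means removed, the medians were 0.193 for the members and -0.002 for all genes. These values describe 6 points that share library, depth and amplification, and pairs of members are not independent of each other.

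Gene length moved with the libraries and touches the short members. Over the 463 tested genes under 1 kb the median deviation from the mean of the other libraries was 0.51 in the library labelled WT replicate 3 and -0.42 in KO replicate 1, and their median log2 fold change was -0.20, against 0.04 for genes over 4.5 kb. The members under 1 kb were *Ifitm2*, *Ifitm3*, *Isg15* and *Bst2*. Their median log2 fold change was -0.36, with median deviations of 0.49 and -0.54 in those libraries, and the other 42 members had a median of -0.002. With a correction for gene length, chosen after seeing the data, the log2 fold change was 0.12 for *Ifitm2*, -0.18 for *Ifitm3*, -0.46 for *Isg15* and -0.22 for *Bst2*, against -0.09, -0.33, -0.61 and -0.39 without it. Uncorrected, *Ifitm3* was -0.09 without KO replicate 1 and -0.55 without KO replicate 3. The long members *Ddx58*, *Oasl1* and *Mx1* changed little, with 0.65, -1.42 and 1.14 under the correction.

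**Figure D5:**
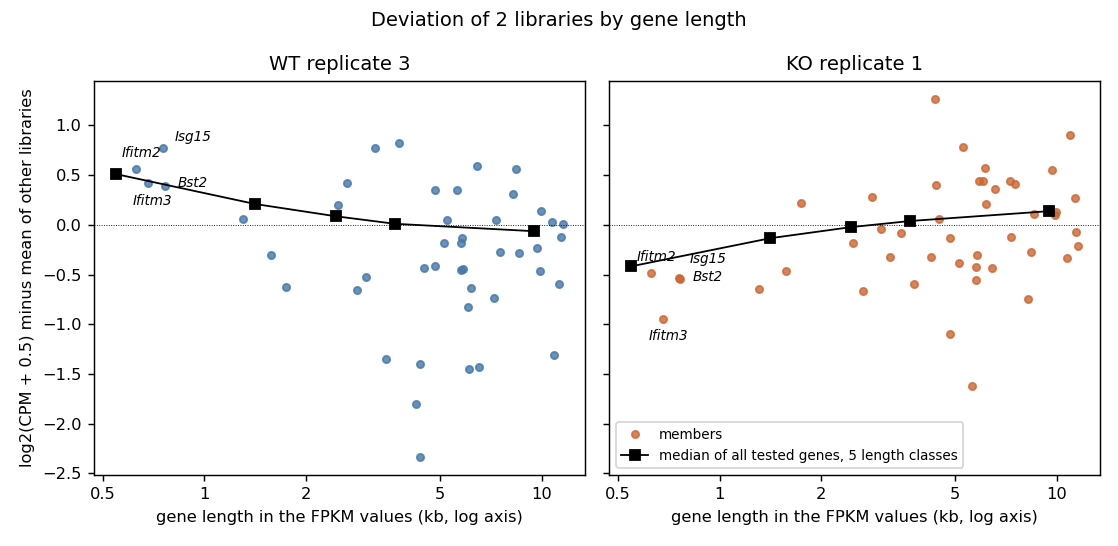
Deviation of WT replicate 3 and of KO replicate 1 from the mean of the other 5 libraries (vertical axis, log2(CPM + 0.5)) against the gene length behind the FPKM values (kb, log axis), with the tested members as points and the medians of all tested genes in 5 length classes as squares, drawn at the middle of each class. The 4 members under 1 kb lie above 0 in WT replicate 3 and below 0 in KO replicate 1, as do the medians of that class.

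Without the library labelled WT replicate 3, the median log2 fold change of the members was -0.15, with 17 of 47 estimates higher in KO and again 0 members past the threshold. Without WT replicate 1, the library with the highest median, it was 0.11, with 25 of 46 estimates higher. With replicate 3 left out of both groups it was -0.14, with 14 of 46 estimates higher. Without KO replicate 1 it was 0.01, with 24 of 47 estimates higher. The median thus changed sign without WT replicate 1 or KO replicate 1, and stayed below 0 without any of the other 4 libraries. The groups did not overlap in 11 of 47 members without the library labelled WT replicate 3 (background 23.6%) and in 14 of 46 without WT replicate 1 (background 23.3%).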

How the data were processed

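The authors deposited raw read counts per gene and FPKM values for 6 libraries of sorted HSCs; TopHat, HTSeq and mm10 are named in the submitters' processing notes, while versions, annotation and strand setting are not given in the sources used here. The deposited FPKM values equalled count over column total and a single length per gene, with differences of at most 0.0703%. The methods name a TruSeq kit and the labels an amplification with SMART-Seq v4; amplified reads are not independent molecules. Libraries of a group differed by more than counting noise (chi-square per degree of freedom 25.7 to 53.2).

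KO was tested against WT on the counts with edgeR 4.0.16 in R 4.3.3 (filterByExpr defaults, TMM, robust quasi-likelihood test, Benjamini-Hochberg over all 12513 genes, threshold 0.05). Groups and replicate numbers came from the titles. CPM used TMM-scaled totals, and log2 levels a pseudocount of 0.5. An exact permutation test was added for single members. The procedure was tested on simulated counts. Alternatives were DESeq2 1.42.0, limma 3.58.1, other scalings and filters, the replicate number as a block, and each library left out. The members, the 96 other pathway genes and the marker lists were chosen with earlier results of these data known. Named members were those past the threshold, those without overlap, the 3 largest fold changes in each direction, the 3 widest ranges and a fixed set with defined roles. Named pathway genes were those without overlap and with a mean of at least 50 counts. Promoters came from RefSeq and coordinates from GENCODE M21 (GRCm38).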

Additional observations from a re-analysis of the deposited data

How the results depend on the processing

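The count of members past the threshold was 0 under all 18 alternatives, as was that of the 96 other pathway genes, and the members' median log2 fold change moved by less than its spread between libraries (SD 0.18) under each, although it changed sign without WT replicate 1 (0.11) and without KO replicate 1 (0.01). Leaving out a library in turn gave -0.15 to 0.11 for that median, 11 to 14 members without overlap (background 20.5 to 23.6%), a log2 ratio of the summed levels of -0.11 to 0.06 and a median pair correlation of 0.0866 to 0.167. Without replicate 3 of both groups, 18 members did not overlap (background 36.2%) and the correlation was 0.164; on FPKM values with a mean of at least 1, 4 of 45 members did not overlap with either pseudocount (background 12.4%). The correlation was 0.200 with column totals only, 0.225 and 0.223 on filtered FPKM values with pseudocounts of 1 and 0.1, and 0.214 on unfiltered ones; the cause was not tested. Fewer libraries make overlap less likely by construction.

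The log2 fold changes of 22 named genes gave 380 of 393 alternative values of the same direction. *Ifit2* ranged from -0.16 to 1.14, *Parp12* from -0.48 to 0.31 and *Ifitm2* from -0.21 to 0.16 with a library left out, *Ifitm2* was 0.041 without replicate 3 of both groups and 0.12 with the gene length correction, and *Parp12* was 0.21 on log2(FPKM + 1) with and without the filter and 0.25 on log2(FPKM + 0.1). *Med23* ranged from -0.85 without WT replicate 3 to -0.13 without WT replicate 2.

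Over all genes, WT replicates 1 and 3 correlated best with the KO library of the same number, and WT replicate 2 did not. The correlations of same-numbered deviations over all genes were 0.170, 0.0324 and 0.170 (0.454, 0.00399 and 0.402 over the members), and WT replicate 2 correlated best with KO replicate 1 (0.0350). With the replicate block, 0 members and 5 of all genes passed the threshold, against 9 without it, the members' median was -0.07, and *Parp12* was 0.13. Depth limits *Mx1*, *Mx2*, *Ifit3* and *Oasl1* most, and the count of all genes past the threshold, 9 in edgeR, was 150 in DESeq2, 0 in limma voom, and 15, 1 and 10 in limma on filtered, unfiltered and filtered FPKM values with pseudocounts of 1, 1 and 0.1.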

Other observations

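Genes outside the list that hold the same ISRE letters in their RefSeq promoter window were also read. There were 333 such genes among those tested, with a median log2 fold change between KO and WT of 0.003, and 0 of them passed the adjusted threshold in edgeR. Every KO library was above every WT library in 18 of them and below in 22. The 8785 other tested genes with a window and without the motif had a median of -0.01, with 6 past the threshold. All KO libraries were above in 534 of these and below in 532, so that the groups did not overlap in 12.1%. The 22 genes with 2 or more matches had a median of 0.14, and the groups did not overlap in 1 of them (4.55%, background 12.4%).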
